A study of Homo sapiens with 8 samples.

Results

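The study treated HepG2 cells, a human line derived from a hepatocellular carcinoma, with the steroid estrogen 17β-estradiol (E2), the ERα-selective agonist PPT, the ERβ-selective agonist DPN or the vehicle DMSO (control). The cells had been starved for 16 h in 0.1% FBS, and each compound was given at 1 µM for 48 h. All 8 of the 8 libraries in the series are described, 2 per treatment, and the 6 treated libraries (E2 1 and 2, PPT 1 and 2, DPN 1 and 2) formed 1 side, set against control 1 and control 2. The libraries of each side were set by treatment label alone. The question was which genes moved the same way in all 6 treated libraries, whatever the compound. Starvation and low serum were common to all 8 libraries. The methods give DMSO as the first solvent of every compound, although they also call E2 water soluble.

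Estrogens act through 2 nuclear receptors, ERα and ERβ, which bind DNA as ligand-activated transcription factors, and through the membrane receptor GPER1. In liver, estrogens are known for their effects on plasma proteins, lipid handling and growth, and liver tumours are more common in men than in women. The nuclear receptors were scarce in these counts. ESR1, which encodes ERα, had 0 counts in every library, which allows a level of up to 0.0136 CPM (the counts of a gene scaled to the size of its library) over all libraries if 3 counts are taken as the limit of detection. ESR2, which encodes ERβ, had 8 and 6 counts in control, 1 and 1 with E2, 4 and 7 with PPT and 3 and 0 with DPN. GPER1 was measured at 16.1 and 16.2 CPM in control, 22.8 and 20.8 with E2, 5.83 and 6.46 with PPT and 10.4 and 12.3 with DPN, so that it was above both control libraries with E2 and below both with PPT and DPN.

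The libraries held 25103160 to 29670814 counts each, and 15460 of 26235 genes had enough counts to be tested. All 11 hepatocyte and hepatoma markers were over 1 CPM on average, among them ALB, APOB and HNF4A. Of the markers of other cells, 1 of 6 fibroblast, 3 of 6 endothelial and 3 of 7 blood cell genes were over 1 CPM, with summed levels of 5.185 to 5.386, 4.338 to 4.386 and 1200 to 1223 CPM in control and 1.869 to 11.16, 1.832 to 7.916 and 567.6 to 1556 CPM in treated libraries. Nearly all of the blood cell sum was LYZ, while PTPRC and CD3E were at or below 0.211 CPM throughout. The part of other cell types in the results was not tested. The 50 most abundant genes took 27.0% and 27.5% of the counts in the E2 libraries and 19.3% to 20.6% in the others. Levels below are CPM scaled by the trimmed mean of M-values (TMM), which assumes that most genes do not change.

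Of the genes whose mean over the compounds differed from control, 48.5% of the rises and 53.9% of the falls were shared by all 6 treated libraries. In the contrast of the mean of the 3 compounds against control, 3858 genes were higher and 4078 lower at an adjusted p under 0.05 by edgeR's quasi-likelihood test, which is 25% and 26.4% of the genes tested. A gene was called, by the cut-offs of the study, where its log2 fold change was beyond 1.5 in either direction with an adjusted p below 0.01, which 259 rises (1.68%) and 307 falls (1.99%) met. Irrespective of the test, 1999 genes (12.9%) were above both control libraries in all 6 treated libraries and 2294 (14.8%) were below both. A change that met both the adjusted p of 0.05 and this agreement is said to have held, and 1871 rises (12.1%) and 2198 falls (14.2%) did so. Among called genes the share was larger: 198 of 259 rises and 272 of 307 falls held, 76.4% and 88.6%. These 470 genes are 1.28% and 1.76% of the genes tested. With library size as the only scaling, 37.6% of the changed genes were higher, against 48.6% here, as the median of all genes shifted by -0.0877 on the log2 scale.

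**Figure D1:**
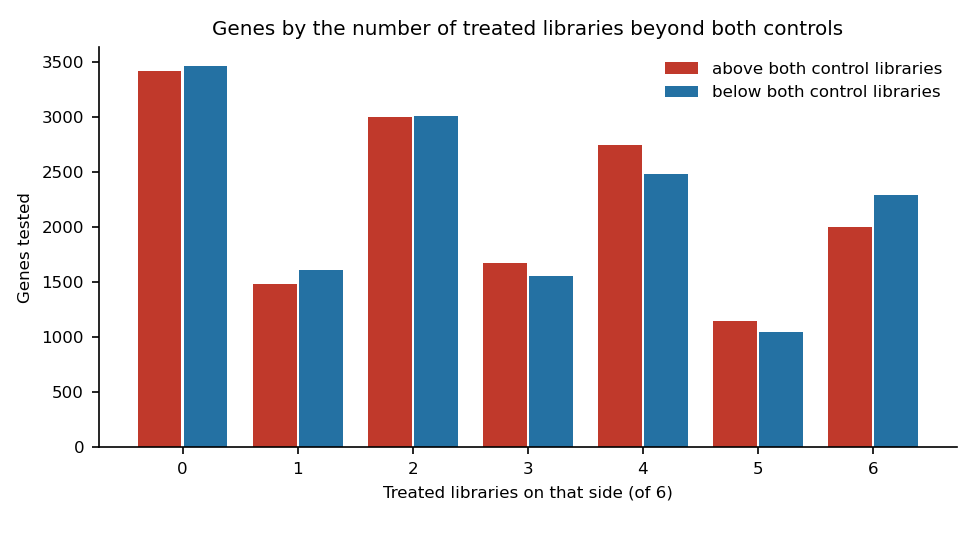
Number of genes tested (y axis) against the number of treated libraries, of 6, that lay above both control libraries (red) or below both (blue) in TMM-scaled CPM. The bars at 6 hold 1999 and 2294 genes of the 15460 tested.

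Most held changes were small in the treated library nearest to the control. The gap, which is the level of the least-moved treated library over that of the nearer control library, had a median of 0.215 on the log2 scale among rises and -0.224 among falls. It reached 1.5-fold for 291 rises and 412 falls, 2-fold for 98 and 183, and 4-fold for 17 and 13. The 3 compounds differed in size of effect for 11429 genes, 73.9% of those tested, by the test among compounds at an adjusted p under 0.05. Of the called genes that held, 160 of 198 rises (80.8%) and 193 of 272 falls (71%) differed. The median range of the 3 log2 fold changes was 1.48 among these rises and 0.986 among these falls. E2 gave the largest change for 109 rises, PPT for 47 and DPN for 42, whereas DPN gave the largest change for 135 falls, PPT for 73 and E2 for 64.

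The size of these counts rested on how the spread was measured. The contrast above takes it from the 2 libraries within each treatment, where the biological coefficient of variation was 6.8%. When the 6 treated libraries were instead treated as 1 group, so that differences between compounds counted as spread, it was 34.5%, and 18 rises and 89 falls were called. All 107 were among the 470. Of the 89 falls 64 were genes of the 8 cell division lists described below, and of the 18 rises 0. These lists hold 236 of the 15460 genes tested, so that 0 of 18 rises says little. They were drawn up with earlier results of these data known. Of the 212 genes examined by name, 79 kept their side of an adjusted p of 0.05 in that fit and 133 did not. Among those described here, the adjusted p was over 0.05 for CENPF (0.0599), MCM2 (0.103) and TYMS (0.0925) of cell division, UGT2B10 (0.0533), EGFR (0.054), SCD (0.0541), CYP19A1 (0.0744), AFP (0.0757), TGFA (0.112), TGFB1 (0.125), DUSP5 (0.131), HBEGF (0.134) and PPARGC1A (0.176), and, among genes led by 1 or 2 compounds, for G6PC1 (0.265), UGT1A1 (0.285), IGF2 (0.33), IGF1R (0.371), IGFBP3 (0.241), EGR1 (0.503), CDKN2B (0.267), CYP24A1 (0.155), NDRG1 (0.335), EGLN3 (0.307), HSPA6 (0.319), ANGPTL2 (0.342), ATP10A (0.258), SOCS3 (0.175), GPER1 (0.78), UGT1A10 (0.319) and UGT1A4, UGT1A5 and UGT1A9 (0.322 each). Over all genes tested, 1.59% were higher and 2.85% lower at 0.05 in that fit, which is the background of each count of list members passing as 1 group. The same 2 control libraries stand behind every value here, so a departure common to both of them and a change common to all compounds cannot be told apart. Nothing says that the libraries of a group came from separate cultures, and the p-values therefore reflect no more than the variation among these samples, possibly a technical one.

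The machinery of cell division fell with every compound. Cells that divide copy their DNA in S phase and separate the copies in mitosis, and many of the genes for these steps are switched on in turn once per cycle, by E2F factors ahead of S phase and by the MuvB complex with B-MYB and FOXM1 ahead of mitosis. Of 236 tested genes in 8 lists of kinetochore, spindle, mitotic kinase, cyclin, replication, nucleotide, repair and chromosome genes, 224 were lower and 2 higher. In all 6 treated libraries, 204 (86.4%) were held lower and none higher, against 14.2% and 12.1% of all genes tested. The study had already reported lower cell cycle genes with every compound in this experiment. The lists were made with such results in view, so that this share is not independent evidence. The median log2 fold change was -1.35 in the pooled contrast, and by compound it went from -1.14 (E2) through -1.35 (PPT) to -1.53 (DPN). DPN gave the largest fall for 138 of them, PPT for 52 and E2 for 46. In bulk RNA, fewer cells in a phase of the cycle and less RNA per cell cannot be told apart.

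Kinetochores join chromosomes to the spindle, and 26 of 29 of their genes were held lower, with a median log2 fold change of -1.5 and 18 passing an adjusted p of 0.05 with the treated libraries as 1 group. CENPA, the histone that marks centromeres, read 44.4 and 45.2 CPM in control, 5.77 and 5.39 with E2, 9.38 and 8.77 with PPT and 7.17 and 5.87 with DPN. Every treated library was at least 4.72-fold below the nearer control (log2 fold change -2.70 ± 0.09, standard error, adjusted p = 3.67e-19). NDC80, whose complex grips microtubules, had a gap of 5.35-fold, and SKA1, which helps it to stay attached, one of 3.87-fold. The log2 fold changes of SKA1 lay within 0.361 of each other across the compounds. CENPF, a large kinetochore protein made in G2, was less even, with -1.20, -1.62 and -2.89 (test among compounds, adjusted p = 3.21e-13).

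Spindle motors and microtubule factors fell nearly throughout, as 31 of 32 were held lower and 28 of these were called (median log2 fold change -1.94, with 27 passing as 1 group). STMN1, stathmin, which takes microtubules apart, was measured at 529 and 532 CPM in control, 110.1 and 116 with E2, 143 and 135 with PPT and 130.2 and 129 with DPN. No treated library came within 3.69-fold of a control library (log2 fold change -2.07 ± 0.05, adjusted p = 3.78e-22). KIF20A, a motor of the central spindle, read 49 and 50.1 CPM in control, 9.88 and 9.22 with E2, 11.4 and 8.67 with PPT and 4.23 and 4.67 with DPN, lowest in both DPN libraries. KIF11, the motor that pushes spindle poles apart, was held lower with a gap of 3.53-fold, as were TPX2, which activates Aurora A (2.76-fold), TACC3 (3.96-fold) and the minus-end motor KIFC1 (3.91-fold).

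Of 30 genes of mitotic kinases, checkpoint and anaphase, 28 were held lower, 21 of them called, and 26 passed as 1 group. BIRC5, survivin, a part of the chromosomal passenger complex and an inhibitor of apoptosis (chromosome 17 from 78214186 to 78225636 of GRCh38), read 115 and 112 CPM in control, 17.3 and 20.0 with E2, 22.8 and 23.9 with PPT and 16.7 and 16.5 with DPN. It was 4.7-fold or more below control in each treated library (log2 fold change -2.55 ± 0.07, adjusted p = 3.39e-21). PLK1, a master kinase of mitosis, had log2 fold changes of -2.43, -2.01 and -3.41 with E2, PPT and DPN, and AURKA, the kinase of spindle poles, of -2.08, -1.87 and -2.02. The compounds differed for PLK1 (adjusted p = 1.93e-11), whereas the test did not pass for AURKA (adjusted p = 0.0733). PTTG1, securin, which restrains the separation of sister chromatids until anaphase, stood at 49.5 and 49.2 CPM in control, 14.3 and 12.1 with E2, 13.7 and 11.6 with PPT and 10.6 and 5.7 with DPN, and DPN 2 was the lowest library. PBK, a mitotic kinase, had a gap of 4.56-fold.

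Cyclins drive each step of the cycle and cyclin-dependent kinase inhibitors restrain it. Of 27 cyclin and kinase genes, 20 were held lower, with CCNB1 (cyclin B1, 2.93-fold), CCNB2 (3.42-fold), CDK1 (3.18-fold) and MYBL2 (B-MYB, 2.58-fold) as those with the smallest p, and 15 passed as 1 group. MYBL2 read 52.4 and 59.8 CPM in control, 17.9 and 20.3 with E2, 9.31 and 9.91 with PPT and 5.58 and 5.43 with DPN and was the most uneven of these, as E2 gave -1.55 and DPN -3.35. Of 17 inhibitor and growth arrest genes, 1 was held higher (5.88%, against 12.1% of all genes) and 5 lower (29.4%, against 14.2%), with 1 of the falls passing as 1 group. CDKN2C, p18, was that gene and went from 17.4 and 19 CPM in control to 3.65 to 5.65 CPM in treated libraries. CDKN2B, p15, read 3.68 and 3.52 CPM in control, 2.73 and 2.4 with E2, 21.2 and 24.6 with PPT and 28.4 and 29.9 with DPN, below both controls with E2 and above both with PPT and DPN.

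Genes of DNA replication fell too. Of 44 genes of origins and forks, 42 were lower and 36 held, with a median log2 fold change of -1.06 and 22 passing as 1 group. PCNA, the sliding clamp of DNA polymerases, read 331 and 328 CPM in control, 136 and 137 with E2, 99.971 and 109 with PPT and 138 and 137 with DPN, a gap of 2.38-fold. MCM2 and MCM7, 2 subunits of the replicative helicase, changed by -0.67 and -0.85 with E2 but by -2.10 and -1.90 with DPN (test among compounds, adjusted p = 1.31e-13 and 4.73e-11). In deoxynucleotide synthesis 8 of 15 genes were held lower and 5 passed as 1 group. TK1, thymidine kinase, fell from 27.1 and 28 to 4.52 to 9.73 CPM, and TYMS, thymidylate synthase, from 102 and 96.5 to 33.8 to 69.6 CPM, with the E2 libraries as those nearest to control for both. Of 32 genes of replication-coupled repair, 29 were held lower and 13 passed as 1 group, and RAD51AP1 and EXO1 had gaps of 3.02-fold and 4.11-fold.

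Chromosome structure genes were held lower in 26 of 27 cases, with 16 passing as 1 group. TOP2A, the topoisomerase that untangles sister chromatids (chromosome 17 from 40388525 to 40417896 of GRCh38), had the smallest p of all listed genes. It read 574 and 547 CPM in control, 143 and 153 with E2, 101 and 114 with PPT and 81.9 and 81.4 with DPN, with no overlap between control and treated libraries (log2 fold change -2.36 ± 0.05, adjusted p = 1e-22). MKI67, the Ki-67 antigen used to count cycling cells in tumours, read 92 and 99.9 CPM in control, 40.0 and 41.9 with E2, 24.5 and 23.6 with PPT and 12.2 and 13.7 with DPN. In MKI67 as in TOP2A, E2 was above PPT and PPT above DPN in both libraries. H2AZ1, a histone variant, was ordered differently. It read 261 and 262 CPM in control, 59.7 and 59.7 with E2, 122 and 111 with PPT and 115 and 116 with DPN, lowest in the E2 libraries.

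**Figure D2:**
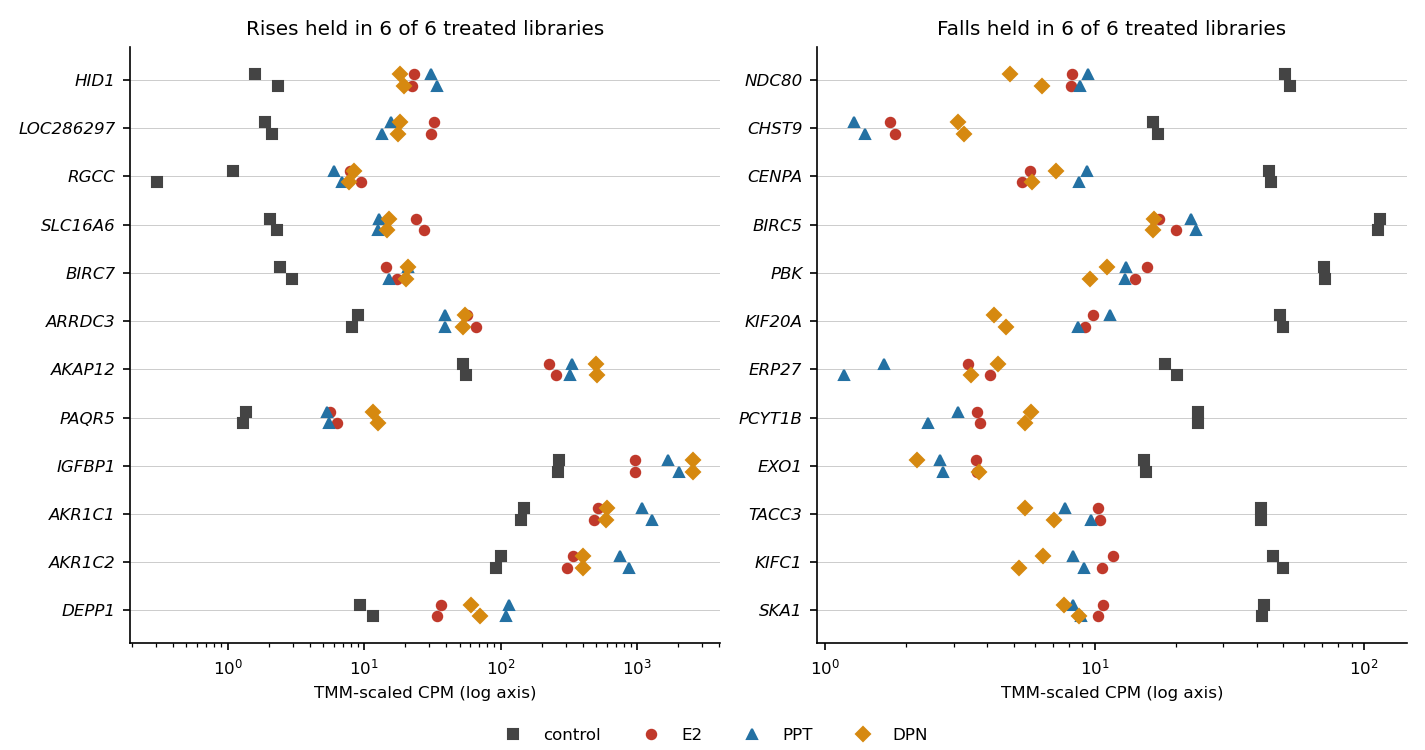
TMM-scaled CPM (x axis, log scale) of the 12 rises and 12 falls with the largest gap among called genes that held and had a mean of at least 5 CPM. Each symbol is 1 library (squares control, circles E2, triangles PPT, diamonds DPN), and in every row all 6 treated libraries lie on 1 side of both controls, by 2.96-fold or more on the left and 3.87-fold or more on the right.

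The promoters of the genes that fell were searched for the elements named above. RefSeq windows of 250 bases before and 50 after a start (GRCh38.p14) were at hand for 10926 of 13353 protein-coding genes tested (81.8%). Where a gene had several windows, the most upstream one was used. The cell cycle genes homology region (CHR, TTTGAA or TTTAAA) is the element that MuvB complexes bind, the CCAAT box (CCAAT) binds NF-Y, and E2F sites (TTTGGCGC or TTTCCCGC) bind E2F factors. Both strands were read, TTTAAA is the same on both, and matches of different elements may overlap. A CHR was in 16.6% of all windows, in 13.2% of those of genes held higher, and in 21.9% of those held lower. Among falls with a gap of at least 1.5-fold it was in 119 of 309 windows (38.5%), and among those with a smaller gap in 262 of 1431 (18.3%). The CCAAT box was in 36.8% of all windows, 29.9% of those held higher, 43.2% of falls with the smaller gap and 56% of those with the larger one. In the kinetochore, spindle and mitotic kinase lists together, 46 of 74 windows (62.2%) held a CHR and 7 (9.46%) an E2F site, against 10 of 77 (13%) and 23 (29.9%) in the replication, repair and nucleotide lists and 3.52% of all windows for the E2F site. The estrogen half-site pair (GGTCA and its reverse complement TGACC, 3 bases apart) was in 1 of 10926 windows and in none of those of held genes. An element this rare would be missing from most sets of that size, so that its absence there carries no information. For called genes fewer than 80% had a window, so that their shares are not given. These are counts of letters in 1 window per gene and show no binding.

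The windows of 4 falls are given 5′ to 3′ on the strand of the gene, from RefSeq on GRCh38.p14. Each holds a CHR within 120 bases before and 30 after the start. They are the first 4 to do so among the 12 falls with the largest gap. Of the same 12, CHST9, PCYT1B, EXO1 and TACC3 had a window without a CHR, and BIRC5, PBK and ERP27 had no window. Capitals mark the CHR (TTTGAA or TTTAAA, read as TTCAAA where it lies on the other strand) and, in KIF20A and KIFC1, the CCAAT box read as ATTGG.
NDC80, chr18:2571437-2571586 (+ strand): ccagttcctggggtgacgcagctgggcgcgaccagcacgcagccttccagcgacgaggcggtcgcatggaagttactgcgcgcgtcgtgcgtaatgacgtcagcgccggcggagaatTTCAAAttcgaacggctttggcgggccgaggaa
CENPA, chr2:26785936-26786085 (+ strand): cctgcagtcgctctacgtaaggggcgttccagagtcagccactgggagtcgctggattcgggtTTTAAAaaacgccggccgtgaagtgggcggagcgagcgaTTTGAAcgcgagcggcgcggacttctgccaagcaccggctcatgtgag
KIF20A, chr5:138178992-138179141 (+ strand): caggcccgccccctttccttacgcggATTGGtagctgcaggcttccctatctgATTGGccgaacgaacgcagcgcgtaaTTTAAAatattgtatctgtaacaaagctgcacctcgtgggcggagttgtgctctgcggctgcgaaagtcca
KIFC1, chr6:33391703-33391852 (+ strand): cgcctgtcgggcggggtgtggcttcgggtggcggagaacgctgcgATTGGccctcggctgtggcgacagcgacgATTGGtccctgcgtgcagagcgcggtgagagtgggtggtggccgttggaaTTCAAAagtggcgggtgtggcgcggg
Within the printed stretches NDC80 holds 1 CHR near the start, CENPA 2, and KIF20A and KIFC1 each 1 downstream of 2 CCAAT boxes. The full window of CENPA also holds a CCAAT box and an E2F site, which the printed stretch does not include. In each treated library NDC80 was 5.35-fold, CENPA 4.72-fold, KIF20A 4.3-fold and KIFC1 3.91-fold or more below the nearer control. The start used for KIFC1 is the most upstream one among the promoter windows at hand. It lies downstream of the start of the RefSeq gene record, at 33391461 on chromosome 6.

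Rises that held in all 6 libraries were spread over many functions. In all, 32 of 198 called and held rises and 125 of 272 falls belonged to any of the lists, whose choice fixes these shares. The largest gap was that of HID1, a protein of secretory granule formation, at 1.58 and 2.34 CPM in control, 23.2 and 22.3 with E2, 31 and 34.4 with PPT and 18.3 and 19.6 with DPN. All treated libraries were 7.79-fold or more above both controls. LOC286297, a transcribed pseudogene, was the next, at 1.87 and 2.1 CPM in control, 32.6 and 31.2 with E2, 15.8 and 13.5 with PPT and 18.3 and 17.7 with DPN. Reads of LOC286297 may come in part from near-identical copies. RGCC, a regulator of the cell cycle that binds CDK1 (chromosome 13 from 41457550 to 41470871 of GRCh38), went from 1.1 and 0.305 CPM to 6.05 to 9.56 CPM and did not pass the test among compounds (3.61, 3.19 and 3.50, adjusted p = 0.177). SLC16A6, a monocarboxylate transporter that carries ketone bodies and taurine, read 2.03 and 2.3 CPM in control, 24 and 27.6 with E2, 12.8 and 12.6 with PPT and 15.2 and 14.7 with DPN, highest with E2. AKAP12 (4.11-fold gap), a scaffold of protein kinase A, PAQR5 (3.92-fold), a membrane progesterone receptor, and DEPP1 (2.96-fold) were also among the 12 with the largest gaps.

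Genes known as targets of FOXO factors, which act when insulin signalling is low, included some of the largest rises. Of 21 tested genes of the insulin and FOXO list, 7 were held higher (33.3%, against 12.1% of all genes), 4 of them called, 1 was held lower, and 3 passed as rises with the treated libraries as 1 group. IGFBP1, a binding protein that limits insulin-like growth factors (chromosome 7 from 45888360 to 45893660 of GRCh38), stood at 269 and 264 CPM in control, 957 and 971 with E2, 1690.5 and 2010.1 with PPT and 2580.3 and 2584 with DPN. The rise was smallest with E2 and largest with DPN (log2 fold change 1.85, 2.79 and 3.27, pooled 2.64 ± 0.06, adjusted p = 1.12e-21, and 0.0179 as 1 group). ARRDC3, an arrestin that guides receptors to lysosomes (chromosome 5 from 91368631 to 91383317 of GRCh38), read 9 and 8.1 CPM in control, 56.6 and 65.9 with E2, 39.1 and 38.8 with PPT and 54.4 and 53.1 with DPN and was 4.31-fold or more above control in every treated library. G6PC1, the last enzyme of glucose release, read 3.03 and 3.66 CPM in control, 41.5 and 40.8 with E2, 3.88 and 4.62 with PPT and 9.73 and 9.07 with DPN, so that the PPT libraries met the rule narrowly.

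Of 13 genes of the insulin-like growth factor system, 8 were held higher (61.5%, against 12.1% of all genes) and none lower, and the median was 0.917 on the log2 scale. The list was drawn in part from the genes the study followed up on these samples, so that its count is not independent evidence. IGFBP1 was the 1 member to pass as 1 group, and for the others named here E2 gave by far the largest change. IGF2, a growth factor of fetal liver, read 508 and 513 CPM in control, 10927 and 10921 with E2, 708 and 691 with PPT and 719 and 748 with DPN. IGFBP3, the main carrier of these factors, read 2.77 and 2.71 CPM in control, 217 and 222 with E2, 3.66 and 4.92 with PPT and 17.9 and 16.7 with DPN. For IGF2 the gap was 1.35-fold and for IGFBP3 1.32-fold, whereas the pooled log2 fold changes were 1.80 and 3.21. IGF1R, the receptor, was at 83.7 and 80.8 CPM in control, 363 and 374 with E2, 102 and 104 with PPT and 95.5 and 101 with DPN, above both controls in all 6 libraries by 1.14-fold or more.

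Aldo-keto reductases and other enzymes of steroid and drug metabolism moved both ways. AKR1C1, which reduces progesterone and other ketosteroids, was measured at 149 and 141 CPM in control, 515 and 486 with E2, 1083 and 1276 with PPT and 600.5 and 587 with DPN. AKR1C2 read 100.2 and 92.3 CPM in control, 337 and 306 with E2, 753 and 877 with PPT and 403 and 402 with DPN. Both were highest with PPT. Their sequences are nearly the same, so that they may share reads, which was not tested. ABCC2, an exporter of conjugated bile pigments and drugs, rose in all 6 libraries, from 280.3 and 261 to 487 to 771 CPM. Of 19 cytochromes P450, 6 were held higher (31.6%, against 12.1% of all genes) and 4 lower (21.1%, against 14.2%). CYP1A1, induced through the aryl hydrocarbon receptor, read 3.77 and 3.39 CPM in control, 17.5 and 15.3 with E2, 9.45 and 9.44 with PPT and 12.1 and 9.72 with DPN. CYP19A1, the aromatase that makes estrogens, read 6.58 and 7.32 CPM in control, 18.3 and 20.5 with E2, 31.8 and 31.6 with PPT and 12.8 and 12.4 with DPN. The gaps were 2.5-fold and 1.69-fold, and of these CYP1A1 passed as 1 group.

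Glucuronidation and sulfation make steroids and drugs soluble for export. Of 24 genes of the glucuronidation and sulfation list, 14 were held lower (58.3%, against 14.2% of all genes) and 1 higher (4.17%). Of the falls 12 were called and 3 passed as 1 group. The list had a median log2 fold change of -1.4. Members of the UGT1A cluster share their last exons, which the counting may have split between them, and several had nearly the same counts, so that they cannot be taken as separate falls. UGT1A1, which conjugates bilirubin, read 46 and 42.9 CPM in control, 0.805 and 0.59 with E2, 2.97 and 2.81 with PPT and 20.8 and 21.8 with DPN, so that all treated libraries were below control, the DPN libraries the least. UGT2B10, which conjugates nicotine, read 455 and 448 CPM in control, 70.1 and 74.4 with E2, 129 and 138 with PPT and 223 and 206 with DPN, in the same order. The list also counts CHST9, a sulfotransferase of carbohydrates and not of steroids or drugs. It read 16.4 and 17.1 CPM in control, 1.74 and 1.81 with E2, 1.28 and 1.41 with PPT and 3.12 and 3.26 with DPN. SERPINA6, which carries cortisol in plasma, fell from 206 and 204 to 73.4 to 129 CPM.

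Among growth factor receptors, EGFR (chromosome 7 from 55019017 to 55211628 of GRCh38) read 13.9 and 14.7 CPM in control, 110.3 and 112 with E2, 36.9 and 39.5 with PPT and 49.5 and 51.4 with DPN (log2 fold change 2.06 ± 0.08, adjusted p = 7.73e-18). Of 9 genes of its family 4 were held higher (44.4%, against 12.1% of all genes), among them the ligands TGFA and HBEGF with gaps of 1.32-fold and 1.46-fold. None was held lower, against 14.2% of all genes, which says little with 9 genes, and 0 passed as 1 group. This list, too, was drawn in part from genes the study followed up. TGFB1, which encodes the growth factor TGF-beta 1, rose from 25.1 and 24.2 to 33.5 to 77.9 CPM. DUSP5, a phosphatase of ERK, rose most with DPN (20.3 and 17.7 CPM in control, 35.3 and 36.9 with E2, 49.8 and 51.1 with PPT and 128 and 123 with DPN). Of 18 MAP kinase feedback genes, 7 were held lower (38.9%, against 14.2% of all genes) and 3 higher (16.7%, against 12.1%). EGR1, an immediate-early gene, was at 122 and 121 CPM in control, 17.7 and 16.3 with E2, 92 and 89.3 with PPT and 91.2 and 90.6 with DPN, so that the fall was small except with E2.

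Of 31 adhesion and actin genes 11 were held higher (35.5%, against 12.1% of all genes) and 1 lower (3.23%, against 14.2%), and 4 passed as rises with the treated libraries as 1 group. ITGA2, the collagen-binding integrin α2, read 122 and 107 CPM in control, 351 and 377 with E2, 338 and 355 with PPT and 630.5 and 629 with DPN. It was highest in both DPN libraries. ACTG1, gamma-actin, read 7079 and 6839.9 CPM in control, 16803 and 16065 with E2, 11836 and 10828 with PPT and 15046 and 15793 with DPN. FLNA, which cross-links actin, read 149.6 and 161 CPM in control, 341 and 326 with E2, 351 and 391 with PPT and 285 and 323 with DPN. Their gaps were 2.77-, 1.53- and 1.77-fold. ACTB, beta-actin, which served as the PCR reference of the study, read 1548 and 1568 CPM in control, 2090.3 and 1904 with E2, 1655 and 1759 with PPT and 1729 and 1645 with DPN and so met the rule as well, by 1.05-fold (log2 fold change 0.20 ± 0.05, adjusted p = 0.00152). For ACTB the adjusted p was 0.0563 with library size as the only scaling and 0.503 as 1 group. Of 14 reference genes, 3 were held higher and 3 lower (21.4% each, against 12.1% and 14.2% of all genes), and GUSB, a lysosomal enzyme often used as one, fell from 37.8 and 37.6 to 22.3 to 27.9 CPM.

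Lipid genes held in both directions. Of 23 fatty acid synthesis genes 10 were held higher (43.5%, against 12.1% of all genes) and 2 lower (8.7%, against 14.2%), with 2 and 2 passing as 1 group. The falls were DGAT2 and DGAT1, which make triglyceride, from 60.8 and 59.9 to 15.1 to 23.1 CPM and from 76.5 and 80.8 to 34.7 to 55.1 CPM. Among the rises were LPIN2, a phosphatidate phosphatase, with a gap of 1.75-fold, and SCD, the desaturase of fatty acids, with 1.37-fold. PPARG, a nuclear receptor that drives lipid storage, read 8.45 and 8.44 CPM in control, 50.3 and 44.7 with E2, 15.9 and 16.1 with PPT and 17.6 and 19.1 with DPN. It was above both controls in all 6 libraries (log2 fold change 1.51 ± 0.10, adjusted p = 9.11e-13, and 0.145 as 1 group), and its coactivator PPARGC1A rose likewise, from 34.5 and 31.9 to 45.6 to 149 CPM. PCYT1B, an enzyme of phosphatidylcholine synthesis, was among the largest falls, at 24.1 and 24.2 CPM in control, 3.67 and 3.75 with E2, 3.11 and 2.41 with PPT and 5.82 and 5.5 with DPN.

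The cytokine receptor IL6R, another gene followed up by the study, read 20.6 and 22.6 CPM in control, 27.7 and 29.6 with E2, 98.8 and 107 with PPT and 125 and 131 with DPN. The E2 libraries met the rule by 1.22-fold, well below the other treated libraries. The pooled log2 fold change was 1.74 (adjusted p = 6.88e-17, and 0.151 as 1 group). SOCS3, a feedback inhibitor of cytokine signalling, was at 0.935 and 1.63 CPM in control, 4.96 and 5.6 with E2, 1.17 and 2.68 with PPT and 6.82 and 5.98 with DPN, so that PPT 1 lay between the controls. The call (log2 fold change 1.66 ± 0.27, adjusted p = 9.27e-06) did not hold. SOCS1, its relative, fell in every treated library, from 6.13 and 8.64 to 2.95 to 4.42 CPM. Other genes called higher that did not hold were CYP24A1 and CDKN2B, which rose with PPT and DPN, and NDRG1 and EGLN3, hypoxia genes led by E2. There were 61 such rises and 35 falls, and 94 of these 96 differed among compounds. Of the 61 rises, 39 missed by 1 library and 18 by 2.

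Held changes among plasma protein genes were about as frequent as among all genes for falls and less frequent for rises: of 30 genes, 5 were held lower (16.7%, against 14.2% of all genes tested) and 2 higher (6.67%, against 12.1%). AFP, the fetal albumin, fell from 16065 and 15363 to 5648 to 10727 CPM and TTR, transthyretin, from 228 and 253 to 81.3 to 144 CPM. The plasma protein list had medians on the log2 scale of 0.989 (E2), -0.892 (PPT) and -0.383 (DPN). Hypoxia genes (median 1.87 with E2, -0.395 with PPT and 0.44 with DPN), amino acid response genes (-1.25, 0.188 and -0.319) and NRF2 genes (-0.452, 1.03 and 0.718) likewise had medians on both sides of 0. Of 35 respiratory chain genes, 13 were held lower (37.1%) and 1 higher (2.86%) with a median of -0.242, and UQCRFS1, an iron-sulfur subunit of complex III, was the 1 member to pass as 1 group (100.3 and 98.2 CPM in control, 66.7 to 74.5 CPM treated). Of 46 ribosomal protein genes, 9 were held lower (19.6%) and 1 higher (2.17%), with a median of -0.458 with DPN and -0.0268 with E2.

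**Figure D3:**
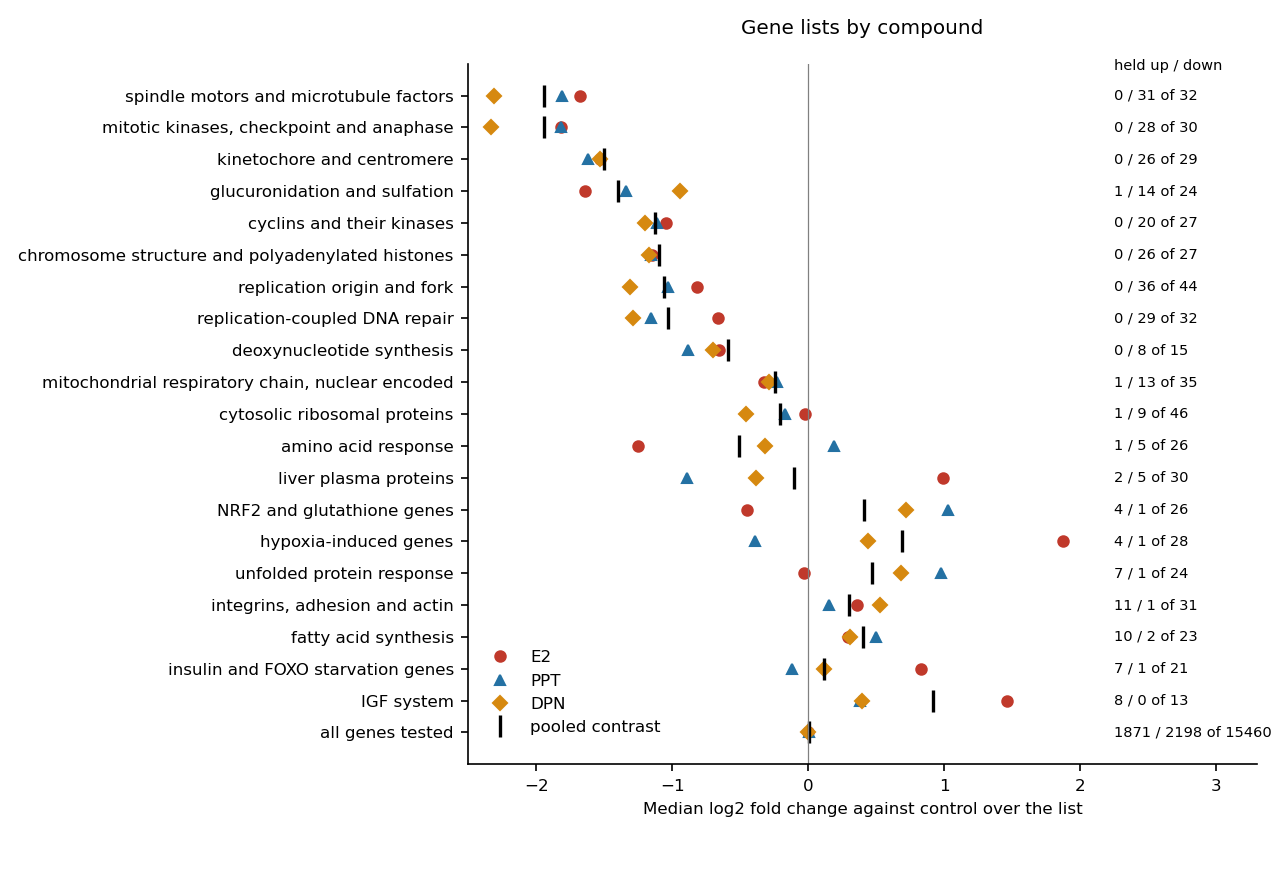
Median log2 fold change against control (x axis) over the tested genes of 20 lists and over all genes tested, for E2 (circles), PPT (triangles), DPN (diamonds) and the pooled contrast (black ticks), with the number of genes held higher and lower at the right. The cell division lists lie below 0 with all compounds, from -0.589 to -1.94 in the pooled contrast, while the hypoxia list runs from -0.395 with PPT to 1.87 with E2.

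The changes with the smallest range between compounds were those of 8 genes, 4 in each direction. BIRC7, livin, an inhibitor of apoptosis (chromosome 20 from 63235883 to 63240495 of GRCh38), read 2.42 and 2.98 CPM in control, 14.4 and 17.4 with E2, 20.9 and 15.2 with PPT and 20.9 and 20.3 with DPN. Its log2 fold changes were 2.56, 2.74 and 2.93, and the test among compounds did not pass (adjusted p = 0.0631). IL11, a cytokine of the IL-6 family, was at 0.935 and 2.47 CPM in control, 6.31 and 7.16 with E2, 5.94 and 6.63 with PPT and 8.11 and 7.9 with DPN, and the controls differed between themselves by a larger ratio than the treated libraries did. GAB2, an adaptor of receptor kinases, rose from 7.64 and 6.4 to 18.6 to 25.8 CPM. MSANTD3-TMEFF1, a readthrough that overlaps TMEFF1, rose by 1.43, 1.65 and 1.77. Even so, the test among compounds passed for GAB2 (adjusted p = 0.00662) and MSANTD3-TMEFF1 (adjusted p = 0.0144). For IL11 it did not pass (adjusted p = 0.317).

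Among the falls the smallest range was that of OIP5, which loads CENPA onto centromeres, at 13.8 and 12.6 CPM in control, 3.58 and 3.24 with E2, 3.08 and 3.28 with PPT and 3.71 and 2.75 with DPN. AKR1D1 read 27 and 28.5 CPM in control, 9.12 and 8.25 with E2, 8.98 and 10.0 with PPT and 10.2 and 8.69 with DPN. Of these falls AKR1D1, the 5β-reductase of bile acid and steroid breakdown, is the 1 outside cell division. CKS2, a subunit of CDK1 complexes, read 95.3 and 86.5 CPM in control, 34.4 and 29.9 with E2, 29.4 and 29.8 with PPT and 34.7 and 30.4 with DPN. CCNF, cyclin F, read 41.8 and 39.2 CPM in control, 11.5 and 13.8 with E2, 13.9 and 14.2 with PPT and 14.3 and 13.3 with DPN. For these 4 the adjusted p of the test among compounds was 0.898, 0.618, 0.359 and 0.49, which does not show equal size. In all, 38 called and held rises and 79 falls did not pass that test. All 8 even genes passed an adjusted p of 0.05 with the treated libraries as 1 group. They were chosen for a small range between compounds, which that fit counts as spread. Passing it, and not passing the test among compounds, follow in large part from that choice and add no support.

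At the other end, several held rises were changes of E2 that PPT and DPN met by a small margin. HSPA6, an inducible heat shock protein, read 0.29 and 0.305 CPM in control, 22.5 and 23 with E2, 0.696 and 0.402 with PPT and 0.45 and 0.481 with DPN. ANGPTL2, a secreted angiopoietin-like protein, read 1.29 and 1.32 CPM in control, 42.6 and 44 with E2, 1.72 and 1.81 with PPT and 1.63 and 1.65 with DPN. Both were near control with PPT and DPN. Without the E2 libraries their log2 fold changes were 0.75 (adjusted p = 0.26) and 0.38 (adjusted p = 0.294). ATP10A, a lipid flippase, was at 1.87 and 1.93 CPM in control, 60.4 and 66.4 with E2, 3.11 and 3.45 with PPT and 6.79 and 5.22 with DPN and so was also led by E2. The most uneven falls were UGT1A4, UGT1A5, UGT1A9 and UGT1A10, whose counts were nearly the same.

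**Figure D4:**
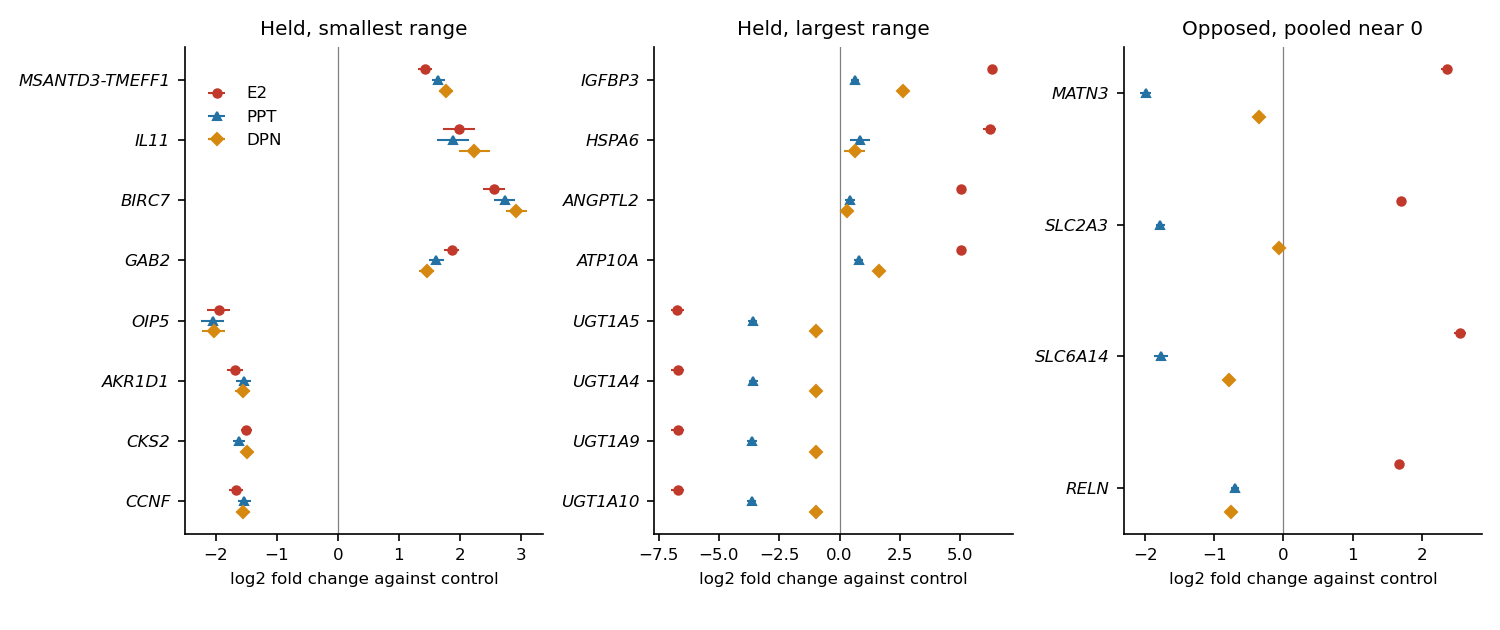
Log2 fold change against control (x axis) with E2 (circles), PPT (triangles) and DPN (diamonds), with standard errors as bars, for the held genes with the smallest (left) and largest (middle) range between compounds and for genes whose compounds opposed each other (right). At the left the 3 symbols of a gene lie within a range of 0.0988 to 0.411, and at the right E2 is above 0 and PPT and DPN are below.

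Pooling also hid changes. For 4866 of the 7524 genes that did not pass 0.05 in the pooled contrast, the compounds differed. This is a smaller share than over all genes tested, where 11429 of 15460 differed (73.9%). The 4 with the smallest p were MATN3, a cartilage matrix protein, SLC2A3, the glucose transporter GLUT3, SLC6A14, an amino acid transporter, and RELN, reelin, all higher with E2. MATN3 read 166 and 154 CPM in control, 840.5 and 803 with E2, 36.1 and 44.4 with PPT and 125 and 127 with DPN and its pooled log2 fold change was 0.01 (adjusted p = 0.948). SLC6A14 read 31.6 and 32.4 CPM in control, 175 and 199.8 with E2, 9.45 and 9.34 with PPT and 19.3 and 17.8 with DPN, with a pooled value of -0.0016 (adjusted p = 0.987). In both, E2 was above the controls and PPT and DPN below them.

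Finally, 5 called and held rises had no counts in either control library. They were LINC01564 and LOC101927560, with 6 to 54 and 10 to 44 counts in the treated libraries, CD109-AS1 (2 to 21), the pseudogene HSD3BP4 (4 to 16) and NRN1, neuritin. Against a floor of 3 counts over both controls (0.0496 CPM), the mean of the treated libraries was at least 16.2-fold higher for LINC01564, 16.7-fold for LOC101927560, 8.41-fold for CD109-AS1 and 6.5-fold for HSD3BP4. NRN1 had 57 and 68 counts with E2 but 1, 1, 1 and 2 with PPT and DPN, so that 1 count was enough to meet the rule there. They are named here after their values were seen.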

How the data were processed

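RNA from HepG2 cells was sequenced as strand-specific poly(A) libraries with single-end reads. The authors deposited raw read counts per gene, 1 table per library, on GRCh38.p10, and the processing notes name DESeq2. The aligner and the counter are not given in the sources used here. The labels give triplicates for each group, and 2 libraries per group were analysed here.

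Counts were tested as deposited with edgeR 4.0.16 (R 4.3.3), using TMM scaling, genes past a minimum count of 10 and a minimum total of 15, a quasi-likelihood F test over 4 groups and Benjamini-Hochberg adjustment over all 15460 genes. The contrast was the mean of E2, PPT and DPN minus control. A gene was called at an adjusted p under 0.01 with a log2 fold change above 1.5 in size. For the gap, 0.5 was added to each count. The difference among compounds was an F test of both contrasts between them. Total counts were 25103160 to 29670814 per library, and the floor of 3 counts covers counting error only, whereas standard errors come from the fit.

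Named genes were the 12 rises and 12 falls with the largest gap among called and held genes with a mean of at least 5 CPM (without genes that lack a symbol or share all counts with another gene), the 4 of these with the smallest and the 4 with the largest range between compounds in each direction, up to 4 members with the smallest p in each list described, the 4 opposed genes with the smallest p of the test among compounds, and the receptors and genes that the study followed up. The members and lists were chosen with earlier results of these data known. Alternatives were other scalings and filters, DESeq2 1.42.0, the treated libraries as 1 group, a replicate block, and leaving out each library or compound. Gene positions are from GENCODE 44, and promoter sequences from RefSeq. The result of 1 named gene is not reported here.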

Additional observations from a re-analysis of the deposited data

Results flagged for a closer look

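CCNF, cyclin F, had 1 treated library that stood apart from the other 5. It read 11.5 CPM in E2 1, against 13.3 CPM in the nearest treated library, and this gap was 0.655 of the range of the 6 treated libraries, past Dixon's 95% critical value for 6 samples. It was the 1 gene of 212 named genes examined (0.472%). The nominal rate of 1 in 20 does not apply here. The treated libraries are pairs from different compounds, and a difference between compounds widens the range that the gap is set against. A gene with a small range between compounds is therefore the kind most easily flagged, and no conclusion is drawn from the count. CCNF was named for a small range between compounds, and its fall had the same sign in all 6 treated libraries, which was a condition of that choice.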

How the results depend on the processing

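With the 6 treated libraries as 1 group, 18 genes were called higher and 89 lower, all of them held, and 246 higher and 440 lower genes were changed and held. Without the E2 libraries 3195 genes were held higher. Without the PPT libraries 408 genes were called higher, 337 of them held. A gap of at least 1.5-fold left 291 and 412 held genes. Without E2 the log2 fold change turned to -1.17 for MATN3, -0.73 for RELN, 0.17 for SESN2, -0.43 for PAQR8, 0.028 for PAQR9 and -0.17 for PLIN2. Without PPT it turned to 0.80 for SLC2A3, 0.87 for SLC6A14 and -0.078 for SLC3A2, and without DPN to 0.38 for SLC6A14. These settings leave out a compound that moved the gene the other way. Leaving out 1 library at a time gave 186 to 211 called and held rises and 251 to 296 falls, which shared 80.6% to 94.9% of the 470 genes, and no named gene changed its direction or its side of an adjusted p of 0.05. DESeq2 gave 193 and 261. Of 212 named genes, 79 kept an adjusted p on the same side of 0.05 in the fit of 1 group and 133 did not.

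The replicate numbers did not pair the samples (correlations of the differences between libraries 1 and 2 from -0.129 to 0.0682). With the replicate number as a block, 192 rises and 272 falls were called and held, and no named gene changed its side of 0.05. The 2 libraries per group limit every estimate of the spread.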
